A study of Rattus norvegicus with 6 samples.

Results

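Levels of 6 cytochrome P450 genes were followed in rat liver: Cyp2b2, Cyp3a9, Cyp3a18, Cyp2a1, Cyp2a2 and Cyp2f4. The probe sets chosen were all those whose only gene symbol in the platform annotation is 1 of these 6, which gave 6 of 4736 such genes and 7 of 8740 probe sets, with Cyp2b2 measured by a pair and each other gene by 1. A further 5 probe sets carry 1 of these symbols together with that of a paralog and are described separately by their identifiers. Liver RNA came from male Sprague Dawley rats on total enteral nutrition, a liquid diet given by tube, over 3 weeks. The 3 Control samples came from a diet with 5% corn oil that supplied 187 kcal per kg of metabolic body mass daily. The 3 NASH samples, named for nonalcoholic steatohepatitis, came from a diet with 70% corn oil and a supply of 220 kcal on that basis, so fat content and energy differ together. Each sample was hybridized to 1 Affymetrix RG_U34A array. Neither the age of the rats nor whether the samples are separate animals is given in the sources used here, so every p-value below rests on a spread among samples that may be technical.

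Cytochrome P450 enzymes are heme proteins of the endoplasmic reticulum that insert an oxygen atom into drugs, steroids and fatty acids, using electrons from the reductase Por. In hepatocytes the Cyp2b and Cyp3a subfamilies are the classic drug-inducible forms, switched on through the nuclear receptors Nr1i3 (CAR) and Nr1i2 (PXR), which pair with the retinoid X receptor. In adult rat liver several members also differ between the sexes under control of the pattern of growth hormone release, with Cyp2a2 and Cyp3a18 of the male type and Cyp2a1 and Cyp3a9 of the female type. Cyp2f4 belongs to a subfamily known chiefly from lung, where it activates naphthalene.

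In the RefSeq gene order of assembly GRCr8, Cyp2b2, Cyp2a1, Cyp2a2 and Cyp2f4 lie in 1 cluster on chromosome 1 that also holds, among others, Cyp2b3, Cyp2b12, Cyp2b15, Cyp2g1 and Cyp2a3, while Cyp3a18 and Cyp3a9 lie on chromosome 12. Start-site windows (250 bases before to 50 after the annotated start) were matched by symbol for 5 of the 6 genes, all but Cyp2a2. They were searched on both strands for AGTTCA and AGGTCA, the half-sites read by nuclear receptors such as CAR and PXR, and for paired half-sites in the spacings called DR3, DR4 and ER6. TATAAA was searched on the gene's strand, and the C/EBP-type motif TTGCNNAA on both strands, the last 2 after the sequences had been seen. The windows of 4 genes are shown because their transcripts form the contrasts described below (Cyp2b2 and Cyp2a1 higher in NASH, Cyp3a9 higher and Cyp3a18 variable). Capitals mark the motif matches: TTGCATAA in Cyp2b2, AGTTCA or its reverse complement TGAACT in the Cyp3a genes, and TATAAA in Cyp2a1.
Cyp2b2, chr1:90722031-90722330 (GRCr8, plus strand): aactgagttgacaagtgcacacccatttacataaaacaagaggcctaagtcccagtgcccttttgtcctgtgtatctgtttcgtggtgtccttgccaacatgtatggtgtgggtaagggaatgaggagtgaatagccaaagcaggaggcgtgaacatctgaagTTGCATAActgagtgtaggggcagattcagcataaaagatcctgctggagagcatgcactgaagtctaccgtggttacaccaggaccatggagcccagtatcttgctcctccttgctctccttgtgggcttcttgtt
Cyp3a9, chr12:21960111-21960410 (GRCr8, minus strand): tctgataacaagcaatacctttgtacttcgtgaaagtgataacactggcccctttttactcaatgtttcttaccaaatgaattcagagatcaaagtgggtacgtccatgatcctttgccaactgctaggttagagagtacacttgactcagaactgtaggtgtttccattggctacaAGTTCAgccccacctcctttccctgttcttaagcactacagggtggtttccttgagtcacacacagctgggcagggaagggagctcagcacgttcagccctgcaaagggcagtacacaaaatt
Cyp3a18, chr12:13994062-13994361 (GRCr8, plus strand): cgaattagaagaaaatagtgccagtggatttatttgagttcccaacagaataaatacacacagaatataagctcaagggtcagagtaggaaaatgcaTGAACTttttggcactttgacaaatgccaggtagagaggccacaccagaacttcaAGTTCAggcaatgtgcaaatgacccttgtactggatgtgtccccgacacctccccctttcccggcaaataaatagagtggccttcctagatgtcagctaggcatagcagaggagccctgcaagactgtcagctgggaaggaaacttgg
Cyp2a1, chr1:91359028-91359327 (GRCr8, plus strand): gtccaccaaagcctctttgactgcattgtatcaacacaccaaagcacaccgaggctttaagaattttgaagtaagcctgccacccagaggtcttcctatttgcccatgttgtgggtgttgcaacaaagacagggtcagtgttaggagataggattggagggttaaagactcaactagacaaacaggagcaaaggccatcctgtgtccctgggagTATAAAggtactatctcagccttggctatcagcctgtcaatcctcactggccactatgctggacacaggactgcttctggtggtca
Cyp3a9 held AGTTCA once, from -73 to -68 relative to the start, and Cyp3a18 held it once on each strand, from -98 to -93 and from -153 to -148. Of 33469 windows of this length in the table, 14.5% hold AGTTCA on either strand and 16.2% hold AGGTCA. The windows of Cyp2b2, Cyp2a1 and Cyp2f4 held neither, and none of the 5 held a DR3, DR4 or ER6 pair, which 0.0418%, 0.0179% and 0.00598% of all windows hold. Cyp2b2 had TTGCATAA from -87 to -80 (TTGCNNAA is in 10.6% of windows) and Cyp2a1 had TATAAA from -36 to -31 (8.8% of windows). These matches are descriptions of the letters in the windows. The well-known phenobarbital-responsive enhancer of Cyp2b genes lies farther upstream than the windows reach.

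Values below are MAS5 signals after quantile normalization between arrays, a relative brightness without a unit. Differences are NASH minus Control on the log2(signal + 2.29) scale with the standard error of limma, a linear model fitted over all 5244 probe sets above an intensity filter. A probe set was called where its Benjamini-Hochberg adjusted p over those 5244 was under 0.05. All 7 member probe sets passed the filter, with mean levels between the 77.9th and the 96.9th percentile of the 8740. Across the array 7 of 5244 probe sets were called (0.133%). Albumin (Alb) was at 5628 to 6065 on the 6 arrays with its brightest probe set, as the labelled tissue, liver, would have it. Array NASH 2 carried brown fat and skeletal muscle transcripts: the summed signal of the 7 markers with values, of 8 listed, was 5107 there, against 150.2 and 176 on the other NASH arrays and 68.2 to 108 on the Control arrays, and none of the 7 was at 0. Ucp1, which defines brown fat, read 1249 on NASH 2 and 2.72 to 21.9 elsewhere (X03894_at). Array Control 3 had an actin 3' to 5' signal ratio of 5.07, against 2.15 to 2.93 on the others. Wash records were blank for Control 2 and NASH 3 and filled for the other 4 arrays.

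Cyp2b2, Cyp3a9, Cyp2a1 and Cyp2a2 had higher signals in NASH than in Control, Cyp2f4 had lower ones, and Cyp3a18 ranged widely in both groups. None of the 7 probe sets was called by limma after adjustment over all probe sets, their adjusted p lying between 0.197 and 0.962; the array-wide 0.133% divides into 0.0953% called higher and 0.0381% called lower. Without adjustment, limma gave 6 of the 7 a p under 0.05, 5 higher and 1 lower, against 7.89% of all tested probe sets (3.87% higher, 4.02% lower). The 3 NASH values lay wholly above the 3 Control values for 4 probe sets (6.54% of all tested) and wholly below them for 1 (7.72%), together 5 of 7 against 14.3%. By sign alone 6 were higher, as were 47.1% of all tested, and 1 was lower, as were 52.9%. The median difference of the 7 was 0.84, against -0.02 for all 5244. These genes were picked with earlier results of the data in view, so the counts describe them and do not test them.

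**Figure D1:**
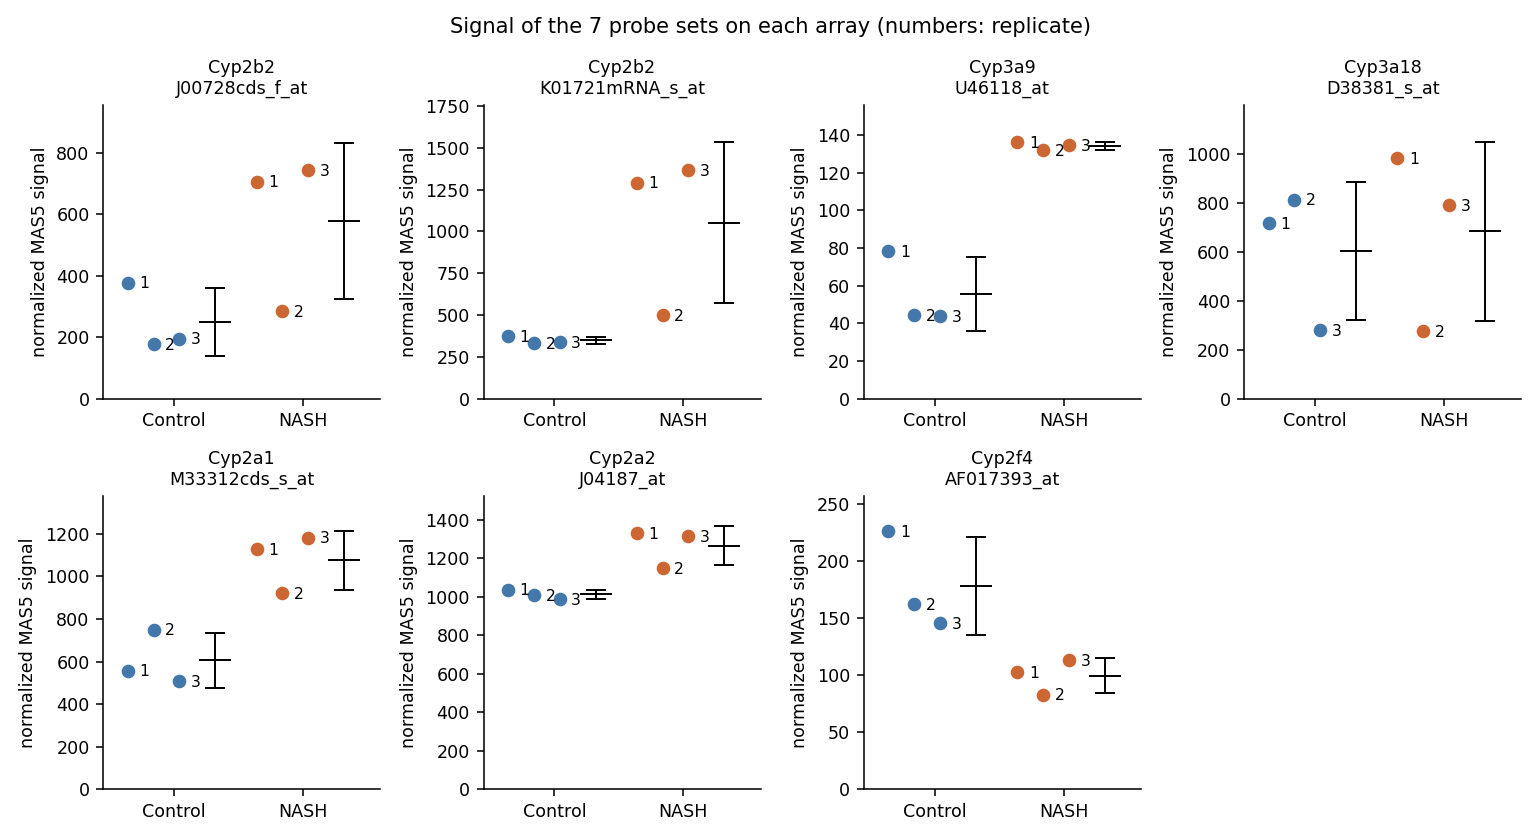
Normalized MAS5 signal (vertical axis, linear and from 0) of each member probe set on each of the 6 arrays. Points are arrays with their replicate number, and the bar beside them is the mean with 1 SD (n = 3). NASH 2 lies far below NASH 1 and NASH 3 for Cyp2b2 and Cyp3a18 but level with them for Cyp3a9.

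Cyp2b2 encodes the main phenobarbital-inducible P450 of rat liver together with its near-identical paralog Cyp2b1. The probe set K01721mRNA_s_at read 373, 333 and 338 in Control 1, 2 and 3, and 1291, 497 and 1366 in NASH 1, 2 and 3. The Control values lay close together, 348 ± 21.8 (SD, n = 3), and the NASH values far apart, 1052 ± 481 (SD, n = 3), with NASH 2 the lowest of its group but above every Control. The difference was 1.46 ± 0.37, or 2.74-fold higher in NASH with a 95% interval of 1.52 to 4.95, and the limma adjusted p was 0.387. The exact two-sided permutation p was 0.1, the smallest that 3 against 3 arrays can give. In the signals as deposited, without normalization, the groups overlapped narrowly, with NASH 2 just under Control 1 at 461.

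The second Cyp2b2 probe set, J00728cds_f_at, read 378, 177 and 196 in the Control arrays and 707, 286 and 744 in the NASH arrays. Here the groups overlapped, because NASH 2 at 286 lay below Control 1 at 378. The difference was 1.17 ± 0.43 (limma adjusted p = 0.569, exact permutation p = 0.2), or 2.24-fold with an interval of 1.13 to 4.47. Signal on NASH 2 was 39.5% of the mean of NASH 1 and NASH 3 for this probe set and 37.4% for K01721mRNA_s_at.

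The size of the Cyp2b2 difference thus varied with array NASH 2. Without that array, K01721mRNA_s_at differed by 1.93 and was called (limma adjusted p = 0.0132). It was also called without both Control 2 and NASH 2 (1.90, adjusted p = 0.0277), and in no other of 20 alternative settings, over which its adjusted p reached 0.901. On the 4 arrays whose wash record was filled, the differences were 1.17 for K01721mRNA_s_at and 0.72 for J00728cds_f_at. Between NASH 3 and Control 2, the pair with blank records, they were 2.03 and 2.05. The brown fat and muscle transcripts of NASH 2 are given above. The summed signal of 8 hepatocyte markers, which the brightest of them dominate, was 30527 on that array and 29271 to 32777 on the others, but their mean log2 deviation was lowest there, at -0.21, against -0.15 to 0.12. With their brightest probe sets Otc, a urea cycle enzyme, read 559 on NASH 2 and 762 to 1569 elsewhere. The clotting factor F10 read 483 against 810.5 to 1639.7, and Ambp was lowest there too, at 3132 against 3535 to 4487. The others were not low on NASH 2. Fgb was highest there, at 3863 against 2792 to 3639, and Serpina1 shared its highest value, 6712, with NASH 3. Alb, Ttr and Apoa1 lay within the range of the other arrays. The other Otc probe set, K03041mRNA_s_at, disagreed: it differed by 0.08 with overlap and was lowest on Control 3, at 46.0, against 104 on NASH 2. The other F10 probe set, D21215cds_s_at, differed by -0.91 and read 164 on NASH 2. Of the 8 markers 3 were higher and 5 lower in NASH (median -0.10), with 0 called by limma. At an unadjusted limma p under 0.05 (7.89% of all tested probe sets) were 3, namely Ambp (-0.27), Otc (-0.70) and F10 (-0.80), all lower. The part of the admixed tissue in the Cyp2b2 values was not tested, and fewer cells of a type cannot be told apart from less RNA per cell in such bulk samples.

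Rat Cyp2b genes are so alike that probes may share transcripts. In the naming of this array type, the suffix _f_at marks a probe set that reads a gene family and _s_at one whose probes match several transcripts, so both Cyp2b2 probe sets may also read Cyp2b1. The probe sets of Cyp3a18 (D38381_s_at) and Cyp2a1 (M33312cds_s_at) carry the _s_at suffix too. They may likewise read other transcripts, so their values below may not be those of 1 gene alone. Another 4 probe sets carry Cyp2b2 with a second symbol: K00996mRNA_s_at, L00320cds_f_at and M11251cds_f_at with Cyp2b1, and M13234cds_f_at with Cyp2b15. In all 4 the NASH signals lay wholly above the Control signals, as in 6.54% of all tested probe sets. M13234cds_f_at read 282, 158 and 159 in Control and 748, 385 and 878 in NASH, a difference of 1.71 ± 0.36 (limma adjusted p = 0.217). The 4 differences lay between 1.23 and 1.71, with adjusted p-values from 0.207 to 0.499. On each, NASH 2 was again the lowest NASH array, at 38.3% to 49.9% of the mean of the other pair. L00320cds_f_at and M11251cds_f_at were called without NASH 2 (1.83 and 1.89, limma adjusted p = 0.0441 and 0.0300), and over the alternatives their adjusted p reached 0.854 and 0.884. All 6 probe sets that read Cyp2b2 were higher in NASH in each of the 20 alternatives. They share transcripts and arrays, so they are repeated readings of the same samples and not independent evidence.

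**Figure D2:**
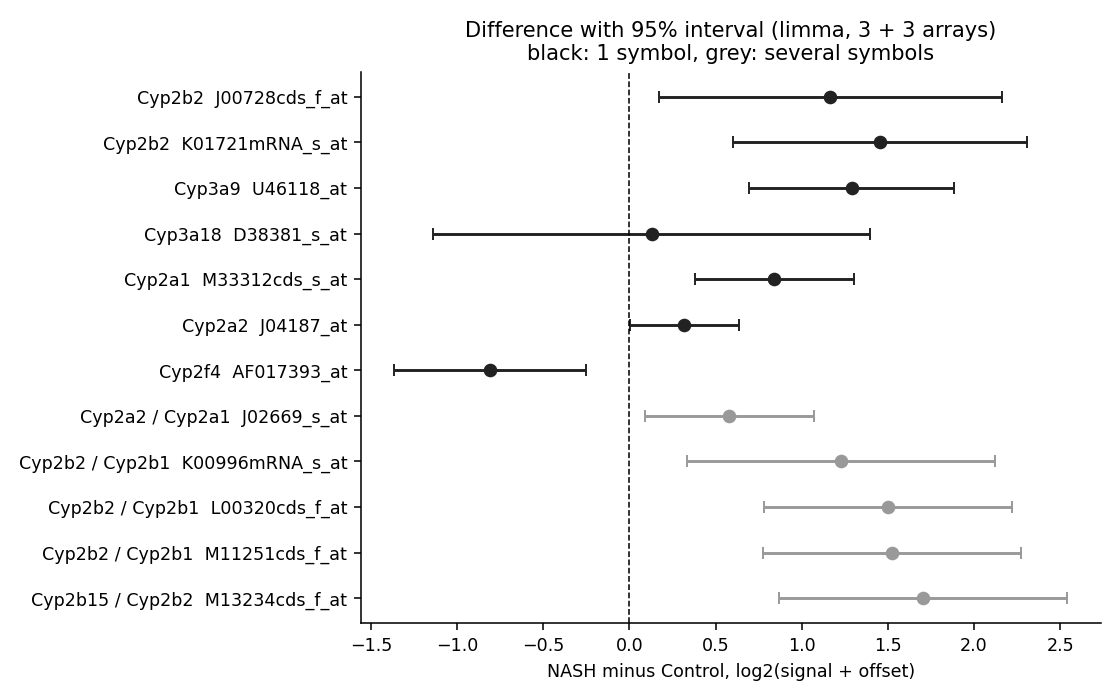
NASH minus Control on the log2(signal + offset) scale (horizontal axis) for the 7 member probe sets (black) and the 5 probe sets with several symbols (grey). Points are limma estimates from 3 and 3 arrays and bars their 95% intervals before any adjustment, and only the bar of Cyp3a18 crosses 0, from -1.14 to 1.40.

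Cyp3a9, a Cyp3a form of the female type that is also found outside the liver, had the lowest p of the members. Its probe set U46118_at read 78.5, 44.3 and 43.8 in Control and 136, 132 and 134 in NASH. The NASH values nearly coincided (134 ± 2.26, SD, n = 3), while Control 1 stood above the other Control arrays (55.6 ± 19.9). The difference was 1.29 ± 0.26, or 2.45-fold with a 95% interval of 1.62 to 3.70, and the limma adjusted p was 0.197 (exact permutation p = 0.1, the smallest possible). It ranked 29th by p among the 5244 probe sets. Unlike Cyp2b2, NASH 2 was at 97.4% of the mean of NASH 1 and NASH 3. With 1 array left out the difference stayed between 1.15 and 1.56. The closeness of the NASH values appears after normalization, since the deposited signals were 148, 132 and 102, still above the highest Control signal of 92.2.

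Cyp3a18, a Cyp3a form of the male type that hydroxylates steroids, gave no stable difference. D38381_s_at read 715, 812 and 281 in Control and 983, 275 and 789.9 in NASH. One array in each group was low, Control 3 and NASH 2, and the groups overlapped fully. The difference was 0.13 ± 0.55 (limma adjusted p = 0.962, exact permutation p = 0.8), with an interval from -1.14 to 1.40, which leaves room for changes of more than 2-fold in either direction. Its sign turned without Control 3 (-0.35), without NASH 1 (-0.23), without NASH 3 (-0.07) and with no scaling between arrays (-0.014). It was 0.69 without NASH 2 and 0.97 without both Control 2 and NASH 2. Control 3 is the array with the high actin 3' to 5' ratio and NASH 2 the one with fat and muscle transcripts; the part of either in these values was not tested.

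Cyp2a1 and Cyp2a2 are neighbouring genes for testosterone hydroxylases of opposite sex type. For Cyp2a1, of the female type, M33312cds_s_at read 558, 750.1 and 509 in Control and 1129, 920.1 and 1182 in NASH. Every NASH array was above every Control array, and the difference was 0.84 ± 0.20, or 1.79-fold (95% interval 1.30 to 2.46, limma adjusted p = 0.327, exact permutation p = 0.1). For Cyp2a2, of the male type, J04187_at read 1037, 1011 and 989.8 in Control and 1332, 1149 and 1314 in NASH. The groups were again apart, but the difference was 0.32 ± 0.14, or 1.25-fold (interval 1.00 to 1.55, limma adjusted p = 0.619, exact permutation p = 0.1). The difference between these 2 values was not tested. With no scaling between arrays Cyp2a2 differed by 0.12 and its groups overlapped, where the median of all tested probe sets moved to -0.17, and Cyp2a1 differed by 0.62. J02669_s_at, which carries both symbols, read 999, 1108 and 661 in Control and 1382, 1238 and 1433 in NASH (0.58 ± 0.21, limma adjusted p = 0.565). Its difference was 0.36 without Control 3, its lowest array.

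Cyp2f4 was the member that went the other way. AF017393_at read 227, 163 and 146 in Control and 103, 83.1 and 114 in NASH, so that every NASH array lay below every Control array. The difference was -0.81 ± 0.24, which makes Control 1.75-fold higher (95% interval 1.19 to 2.57, limma adjusted p = 0.456, exact permutation p = 0.1). With 1 array left out it ran from -0.94 to -0.63, while the arrays whose wash record was filled gave -0.96 and the pair with blank records -0.51. Of 5 lung epithelial markers, 4 lay below the intensity filter, and the summed signal of the 5 was 69.3 to 124 in Control and 73.7 to 80.8 in NASH. The marker above the filter, Sftpb, read 68.8, 105 and 48.4 in Control and 57.1, 62.4 and 50.9 in NASH, most of each sum. Its difference was -0.31 ± 0.29 with overlap (limma adjusted p = 0.809). The club cell secretoglobin Scgb1a1 was at 3.07 to 6.46 on all arrays.

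**Figure D3:**
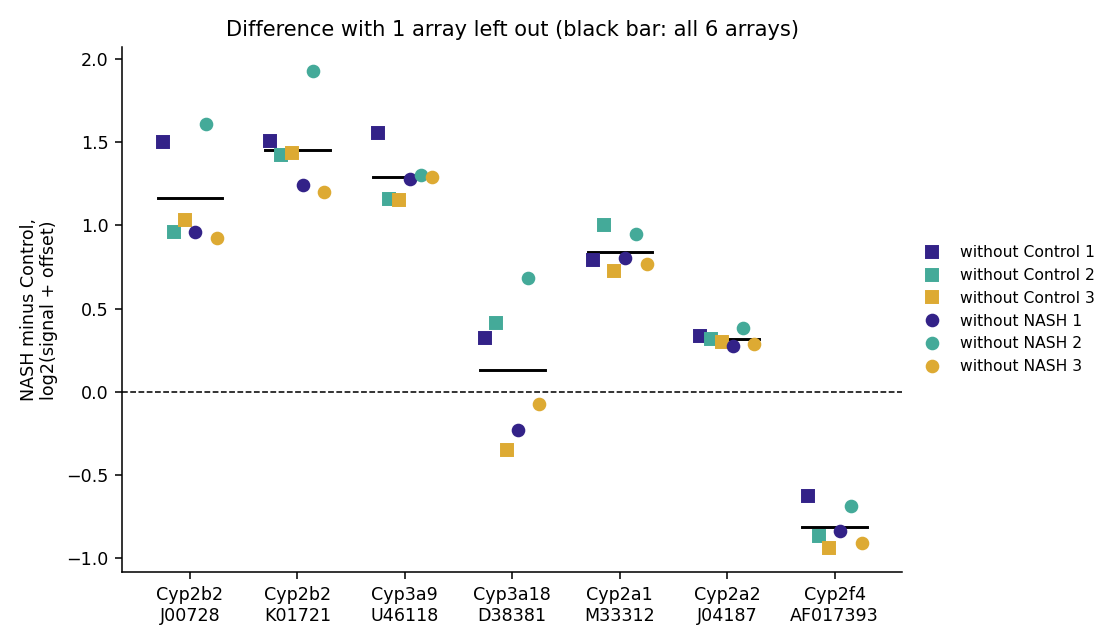
Difference of each member probe set (vertical axis, NASH minus Control, log2 scale) with all 6 arrays (black bar) and with each array left out (squares for Control, circles for NASH, coloured by replicate number). Leaving out NASH 2 gives the highest Cyp2b2 values, 1.61 and 1.93, and only Cyp3a18 crosses 0.

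Across the 6 arrays the log2 values of Cyp2b2 (K01721mRNA_s_at) and Cyp2a2 ran together (Pearson r = 0.98), those of Cyp2a1 and Cyp2a2 less closely (0.92), and Cyp3a18 reached at most 0.55 with any of the other 6 probe sets. These are descriptions over arrays that share the 2 diets. Of the other tested probe sets with 1 symbol, the 3 most like K01721mRNA_s_at were those of Cyp4a1 (X07259cds_s_at, 0.99), the fatty acid omega-hydroxylase, Pex11a (0.98), a peroxisome division factor, and Cyp2a2. For J00728cds_f_at, the other Cyp2b2 probe set, they were different genes: Fgfbp3 (0.98), Hlf (0.97) and Myo5b (0.96). The nearest to Cyp2a2 was a probe set of Eci1, an isomerase of unsaturated fatty acid oxidation (D00729_g_at, 0.98). For Cyp2a1 the order was Ppp4r3b (0.98), Elavl4 (0.97) and the Eci1 probe set rc_AI170568_s_at (0.97). That Eci1 probe set was called higher in NASH (2.62, limma adjusted p = 0.0344). The nearest to Cyp3a9 was Ppp3r1 (0.99), to Cyp2f4 Ndufa6 (0.99) and to Cyp3a18 Rab11a (0.999). Each was among the 3 highest of 4297 or 4298 candidates over 6 arrays and carries no test.

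Other genes of the same subfamilies were higher in 4 of 5 tested cases, with a median of 0.54. By limma 0 were called and 2 had an unadjusted p under 0.05. For this list and those below, the shares of all tested probe sets were 47.1% higher, 0.133% called and 7.89% at an unadjusted limma p under 0.05. Cyp3a2, a major Cyp3a enzyme of male rat liver, read 1698, 2593 and 1858 in Control and 2831, 2775 and 3205 in NASH (0.54 ± 0.17, limma adjusted p = 0.499). Cyp3a23-3a1, the classic pregnane-inducible form, differed by 0.75 ± 0.24 with its brightest probe set X64401cds_s_at (adjusted p = 0.499) and by 1.20 with D13912_s_at. On the latter Control 3 read 348, against 1234 and 1259 on the other Control arrays. The remaining Cyp3a23-3a1 probe sets, L24207_i_at and L24207_r_at, differed by -0.07 and 0.05 and overlapped. Cyp2b3, a Cyp2b form known not to respond to phenobarbital, differed by -0.30 ± 0.15 with its brightest probe set M20406_at (adjusted p = 0.621), with NASH wholly below Control. Its other probe sets disagreed, at 2.42 and 0.24. Cyp2a3 (0.64) and Cyp2b15 (0.32) overlapped, and Cyp2b12 and Cyp2g1 lay below the filter.

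**Figure D4:**
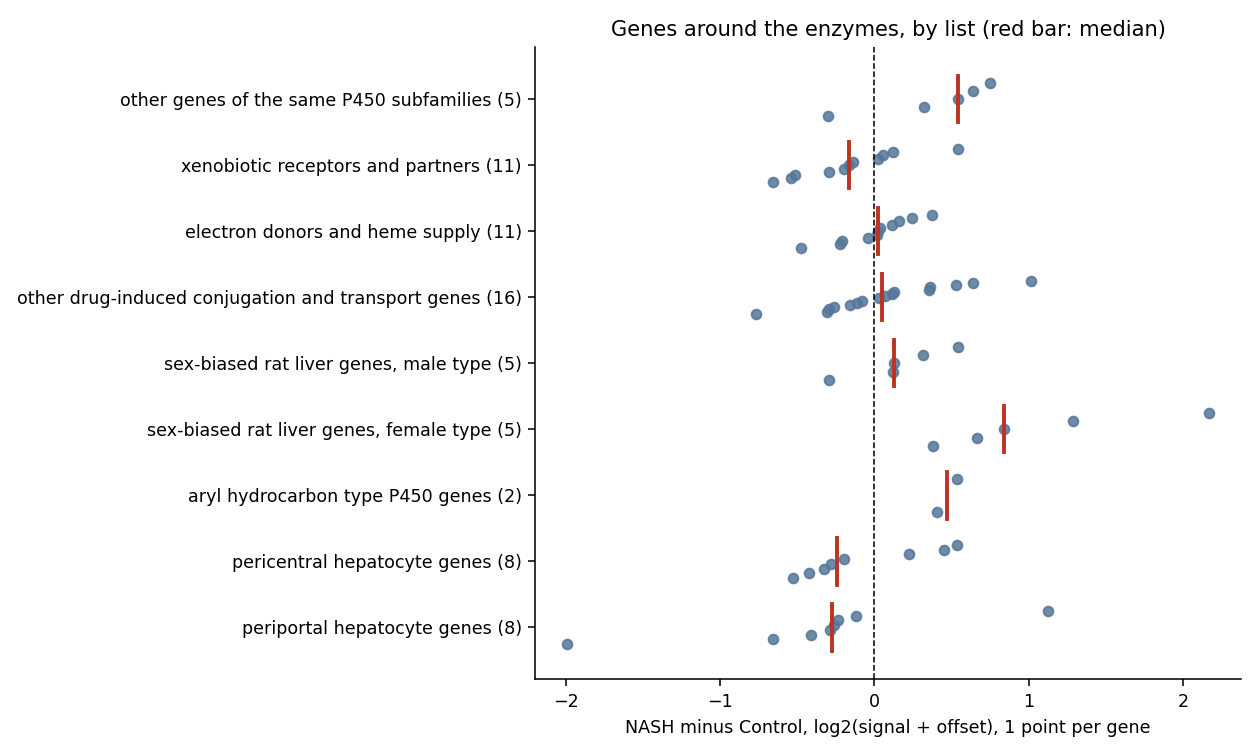
NASH minus Control on the log2(signal + offset) scale for the tested genes of 9 background lists, 1 point per gene (brightest probe set) and a red bar at the list median, with the number of genes in brackets. The 5 genes of the female type, which include the members Cyp3a9 and Cyp2a1, all lie above 0. Their median, 0.84, is the value of Cyp2a1. The receptor, heme and conjugation lists scatter around 0.

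Of the receptors and partners that control these genes, 4 of 11 tested were higher and 7 lower (median -0.16), and 0 were called by limma, with 2 at an unadjusted p under 0.05. Nr1i2 and Nr1i3 themselves were not analysed here. Nr3c1, the glucocorticoid receptor, read 79.3, 102 and 90.3 in Control and 61.1, 61.2 and 61.4 in NASH (-0.54 ± 0.19, limma adjusted p = 0.541). Rxra, the common partner of CAR and PXR, differed by 0.54 ± 0.23 with overlap (adjusted p = 0.619). The liver factor Onecut1 differed by -0.66 and Rxrb by -0.51, also with overlap. With no scaling between arrays 1 of the 11 was higher, with a median of -0.28. In that setting 31.2% of all tested probe sets were higher (median -0.17), the share to set beside the unscaled counts below too.

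Electron donors and heme supply showed no common direction: 7 of 11 were higher and 4 lower (median 0.03), 0 were called and 0 had an unadjusted limma p under 0.05. Por differed by 0.11 ± 0.26 and Alas1, the rate-setting enzyme of heme synthesis, by 0.24 with 1 probe set and -0.28 with another. The 4 with the lowest p were Hmox1 (0.37), Ppox (-0.47), Cyb5r3 (-0.22) and Pgrmc1 (-0.21). The other Cyb5r3 probe sets differed by -0.06 to 0.15, while the second ones of Hmox1 (0.60) and Ppox (-0.40) kept the sign. The count higher was 3 without scaling, 5 with arrays scaled to one trimmed mean and 4 with one median.

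Conjugation and transport genes of drug induction were higher in 9 of 16 tested cases (median 0.05), with 0 called and 4 at an unadjusted limma p under 0.05 (7.89% of all tested probe sets). The bile acid and steroid sulfotransferases Sult2a6 and Sult2a1, close paralogs read by family probe sets, had the smallest p. X63410cds_f_at of Sult2a6 read 983, 939 and 997 in Control and 1463, 1721 and 1394 in NASH (0.64 ± 0.14, limma adjusted p = 0.249), and D14988_f_at of Sult2a1 differed by 0.53 ± 0.13 (adjusted p = 0.319). Here NASH 2 was the highest array, in contrast to Cyp2b2. Aldh1a1, a retinal dehydrogenase, read 276, 243 and 425 in Control and 866, 299.9 and 914 in NASH (1.01 ± 0.44, limma adjusted p = 0.619), with NASH 2 low as for Cyp2b2. Akr7a3, an aflatoxin aldehyde reductase, read 179, 175 and 180.0 in Control and 129, 73.5 and 118 in NASH (-0.77 ± 0.25, adjusted p = 0.499). The epoxide hydrolase Ephx1, a gene of the phenobarbital response, differed by -0.30 ± 0.24 and Ugt2b1 by 0.03 ± 0.31, both with overlap. Without scaling 5 of the 16 were higher.

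Genes with a sex-linked level in rat liver were set out by type, the members being part of both lists. All 5 tested genes of the female type were higher in NASH under each of the 4 scalings. Besides the members Cyp3a9 and Cyp2a1 these were the prolactin receptor Prlr, Cyp2c7 and Cyp2c12. The median was 0.84, the value of Cyp2a1, with quantile normalization. It was 0.62 without scaling, 0.79 with arrays scaled to one trimmed mean and 0.76 with one median. By limma 0 were called, and 3 had an unadjusted p under 0.05, namely the members Cyp3a9 and Cyp2a1 and, outside them, Prlr. Prlr read 5.51, 19.9 and 47.5 in Control and 104, 97.7 and 71.4 in NASH with L48060_s_at (2.17 ± 0.59, limma adjusted p = 0.442), while its other probe sets differed by -0.06 to 2.37. Cyp2c7 differed by 0.66 ± 0.34 with overlap. Cyp2c12, the defining P450 of female rat liver, read 60.5, 419.5 and 227 in Control and 537, 30.9 and 741 in NASH, so that its difference of 0.38 ± 1.18 was far inside the spread. Of the male type 4 of 5 were higher (median 0.13; 2 of 5 without scaling), with 0 called by limma and 3 at an unadjusted p under 0.05. Cyp2c11, the main P450 of male rat liver, was the exception at -0.29 ± 0.12 with its brightest probe set J02657_s_at (limma adjusted p = 0.618), while Cyp2c13 differed by 0.12 ± 0.12. The other Cyp2c11 probe sets differed by -0.24 with overlap (M18363cds_s_at) and by 0.06 (X79081mRNA_f_at).

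The aryl hydrocarbon type showed Cyp1a2, which metabolizes caffeine, at 0.54 ± 0.20 (limma adjusted p = 0.581) with overlap, and at 0.86 and 1.08 with its other probe sets, whose groups were apart. Aldh3a1 differed by 0.41, and Cyp1a1 and Cyp1b1 lay below the filter. Markers of other liver cells were few on the array: 1 of 2 Kupffer cell, 2 of 3 stellate cell and 1 of 2 bile duct markers tested were higher (medians 0.08, 0.16 and -0.16), with 0 called by limma and 0 at an unadjusted p under 0.05. Genes of the pericentral zone, where Cyp2b and Cyp3a are mostly found, were higher in 3 of 8 cases (median -0.24). Those of the periportal zone were higher in 1 of 8 (median -0.27). In either list 0 were called and 1 had an unadjusted limma p under 0.05. The periportal list stood out on array Control 2, with a mean log2 deviation of 1.15, against -0.50 to 0.05 on the others. The part of that array in the periportal differences was not tested. The lowest p among the pericentral genes after Cyp1a2 belonged to the glutamate transporter Slc1a2 (-0.53), Oat (-0.42) and Cyp2e1 (0.23). Among the periportal genes it belonged to Ass1 (-0.65), Pck1 (1.13), Cps1 (-0.26) and Arg1 (-0.28), and none of these genes was past the threshold. Other tested probe sets went the opposite way for Slc1a2 (U15098_at, 0.43) and Oat (M93297cds_at, 0.25). Those of Cyp2e1 both differed by 0.34, and M11710cds_s_at of Cps1 by 0.00.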

How the data were processed

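The deposited values are linear intensities; MAS5 made them, per the submitters' processing notes, with no version, scaling target or detection call stated. Trimmed means (2% at each end) ran from 73.4 to 117 over the 6 arrays, so the table held no common scale. After 59 control probe sets were removed, arrays were quantile normalized, an offset of 2.29 (10th percentile) was added and log2 taken, so folds understate dim genes. Probe sets with a mean log2 above the 40th percentile were fitted with limma 3.58.1 in R 4.3.3 (eBayes with a trend, no covariates; residual degrees of freedom 4, prior 3.91). Groups came from the titles, because every description repeats the wording of Control 1. Symbols came from the platform annotation (1 symbol for 7006 probe sets, several for 308, none for 1426), and sequences from RefSeq (GRCr8). List values use a gene's brightest probe set. The text names all members and, of each background list, up to 4 genes with the smallest p. Por, Alas1, Ephx1, Ugt2b1, Cyp2b15, Cyp2c12, Alb, Serpina1, Ttr, Apoa1, Ucp1 and Scgb1a1 were named after their values were seen. The members and lists were chosen with earlier results of these data known. The fit was tested on simulated data. Alternatives covered scaling, offset, filter, prior, array weights, blocks and arrays left out.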

Additional observations from a re-analysis of the deposited data

How the results depend on the processing

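The number of called probe sets on the whole array, 7 (5 higher, 2 lower), was 14 with no scaling between arrays (8 higher, 6 lower; 31.2% of all differences above 0, against 47.1%), 0 with no filter (limma, 626 at an unadjusted p under 0.05), 3 without the intensity trend, 20 with array weights, 3 with the wash record as a block, 2 on arrays with a filled wash record, 14 at an adjusted p under 0.1 and 15 without both Control 2 and NASH 2. Leaving out 1 array gave 0 to 17, the highest without NASH 2. With the replicate number as a block it was 1, and no member changed its call. The numbers were not taken as pairs, since the deviations of same-numbered arrays correlated at 0.048, -0.021 and 0.073, none above 0.1. Control 1, Control 3 and NASH 3 correlated best with their own number, and Control 2, NASH 1 and NASH 2 with another.

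Of the 7 member probe sets, 0 were called by limma; 1 was called without both Control 2 and NASH 2, and leaving out 1 array gave 0 to 1. For 6 of them the direction was the same in all 20 alternatives that gave a difference. Cyp3a18 turned sign with no scaling (-0.014), without Control 3 (-0.35), without NASH 1 (-0.23) and without NASH 3 (-0.07), leaving out 1 array giving -0.35 to 0.69, and the cause was not tested. With 3 arrays a group the precision is limited, and the p-values could not fall below 0.1 by permutation. Because MAS5 gives no probe-level values here, reads shared among paralogs could not be separated.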
